A study of Mus musculus with 89 samples.

Results

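Lymphoid homing genes, namely the chemokines Cxcl13, Ccl19, Ccl21a and Cxcl12, the receptors Ccr7, Cxcr5 and Cxcr4, and the cytokine gene Ltb, were followed in mouse lung tissue after exposure to copper oxide (CuO) nanomaterials. The members were taken as every non-control probe of the array whose transcript identifier maps to 1 of these symbols, which gave 8 of 22911 named genes and 11 of 56605 probes. All mice were female BALB/c of 6 to 8 weeks that had been sensitised to ovalbumin (OVA) in Alum by intraperitoneal injection on days 1 and 10, so the controls were sensitised too. After 10 days of recovery they received phosphate-buffered saline (PBS-challenged) or OVA (OVA-challenged, a model of allergic airway inflammation) by oropharyngeal aspiration on 4 consecutive days. The exposed groups received in the same aspirations core CuO or CuO carrying COOH, NH3 or polyethylene glycol (CuO PEG) on its surface, at 2.5, 10 or 40 μg/mouse each time. Doses were matched by mass of the whole material, not by its copper. Lung tissue was taken 24 h after the last aspiration from lungs that had been lavaged first, so part of the cells of the airway lumen had been washed out.

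Each of the 89 samples was a pool of RNA from 2 mice, hybridised with Cy3 or Cy5 on a 2-colour Agilent array. They formed 26 groups: 7 PBS-challenged controls, 8 OVA-challenged controls, 4 pools each of PBS-challenged mice given CuO NH3 or CuO PEG at 10 μg, and 3 pools in each of the other groups. Core CuO and CuO COOH lay on slides 1 to 3 and CuO NH3 and CuO PEG on slides 4 to 6, with controls on all 6 slides. Between 46.7% and 68.8% of the probes of a sample were well above background, and the lung markers Sftpc, Sftpb, Ager, Scgb1a1, Foxj1 and Cldn5 were so in all 89 samples. The member probes were well above background in 89 of 89 samples, except that of Cxcl13 with 87 of 89, which was not well above background in PBS-challenged control replicate 7 and in CuO PEG 10 replicate 4 of the PBS-challenged mice. Levels are given as log2 intensity after quantile normalization with dye, slide and array position removed, and cannot be compared between genes. A gene was called (a differentially expressed gene, DEG) at a Benjamini-Hochberg adjusted p below 0.05 over all genes in limma and an absolute log2 fold change above 0.58. The fold changes against controls come from a fit with the array as a term and so rest on differences within arrays, which is why a fold change can depart from the difference of 2 mean levels.

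Homeostatic chemokines place lymphocytes in tissue. CXCL13, made by stromal cells and some myeloid cells, draws B cells through CXCR5, while CCL19 and CCL21 draw naive T cells and mature dendritic cells through CCR7, and CXCL12 acts on CXCR4 of most leucocytes. Lymphotoxin beta, the product of Ltb on lymphocytes, signals through the lymphotoxin beta receptor and non-canonical NF-κB and maintains the stromal cells that make these chemokines, and in chronically inflamed lung the same genes accompany lymphoid aggregates near the airways.

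Promoter windows of 250 bases before to 50 bases after the gene start were at hand in RefSeq (build GRCm38.p6) for 6 of the 8 members, Cxcl13, Ccl19, Ccl21a, Cxcl12, Cxcr4 and Ltb. Cxcl13 is shown as the member with the widest range of levels and Ltb as the cytokine gene at the other end of the lymphotoxin and chemokine circuit, which was called in no comparison, with a TATA box sequence (TATAAA) in capitals where there was one. The Cxcl13 window lies on the plus strand at chr5:95956689-95956988 and the Ltb window on the plus strand at chr17:35194257-35194556, both written 5′ to 3′.
Cxcl13: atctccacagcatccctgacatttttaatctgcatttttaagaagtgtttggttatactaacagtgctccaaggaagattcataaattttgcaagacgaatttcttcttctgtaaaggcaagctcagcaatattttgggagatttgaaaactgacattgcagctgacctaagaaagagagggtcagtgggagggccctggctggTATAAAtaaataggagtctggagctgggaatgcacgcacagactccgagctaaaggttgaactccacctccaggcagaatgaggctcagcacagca
Ltb: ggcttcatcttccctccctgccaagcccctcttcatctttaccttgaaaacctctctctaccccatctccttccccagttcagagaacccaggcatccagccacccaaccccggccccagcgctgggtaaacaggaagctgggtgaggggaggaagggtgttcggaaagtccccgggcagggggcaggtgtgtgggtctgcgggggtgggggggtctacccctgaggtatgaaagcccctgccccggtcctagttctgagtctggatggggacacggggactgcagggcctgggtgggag

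Searched on both strands, TATAAA was found in the Cxcl13 window on the coding strand at bases -46 to -41 from the start. It was found in 2 of the 6 member windows, those of Cxcl13 and Cxcr4, and in 4473 of all 32851 windows (13.6%). A match describes the letters of these windows only, and the Ltb window does not hold them.

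The number of members called in each comparison is given first, beside the share of all genes called there. OVA challenge alone called 2 of 8 members, Cxcl13 and Ccl19, both higher, where 5.22% of all genes were called, and the median log2 fold change was 0.24 over the members and -0.02 over all genes. In PBS-challenged mice, core CuO called 1 of 8 members at 2.5 μg, 2 at 10 μg and 4 at 40 μg, where 0.908%, 3.56% and 14.0% of all genes were called. CuO COOH called 0, 1 and 4 members at these doses (0.345%, 3.61% and 10.3% of all genes). CuO NH3 called 0, 2 and 4 (0.934%, 3.37% and 13.2% of all genes), and CuO PEG called 0, 0 and 1 (0%, 0.428% and 2.18% of all genes). Together these were 19 of 96 gene and group combinations, 13 of them higher than in controls and 6 lower. Of the higher calls 6 were of Cxcl12, averaged over a pair of probes that disagreed, and these 6 changed sign with the brighter probe alone. The 3 groups with 4 called members each combined higher Cxcl13 and Cxcl12 with lower Ccr7 and Cxcr5, and their member medians were -0.37 with core CuO, -0.38 with CuO COOH and -0.51 with CuO NH3, against 0.01, 0.00 and 0.00 over all genes.

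In OVA-challenged mice 2 of 96 combinations were called, both lower than in OVA-challenged controls. Core CuO called no member at 2.5, 10 or 40 μg (0%, 0.266% and 1.58% of all genes), and CuO PEG called none either (0%, 0% and 0.642%). CuO COOH called none at 2.5 and 10 μg (0.0349% and 0.637%) and 1, Cxcr5, at 40 μg (3.81%). CuO NH3 called none at 2.5 and 10 μg (0.986% and 2.51%) and 1, Ccl19, at 40 μg (3.98%). The difference in exposure effect between OVA- and PBS-challenged mice was tested for each material and dose, and 1 of 96 such differences was called for a member, that of Cxcl13 with CuO NH3 at 40 μg, against 0.346% of all gene and group combinations. Groups of one challenge share their controls, so these comparisons are not independent of each other.

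**Figure D1:**
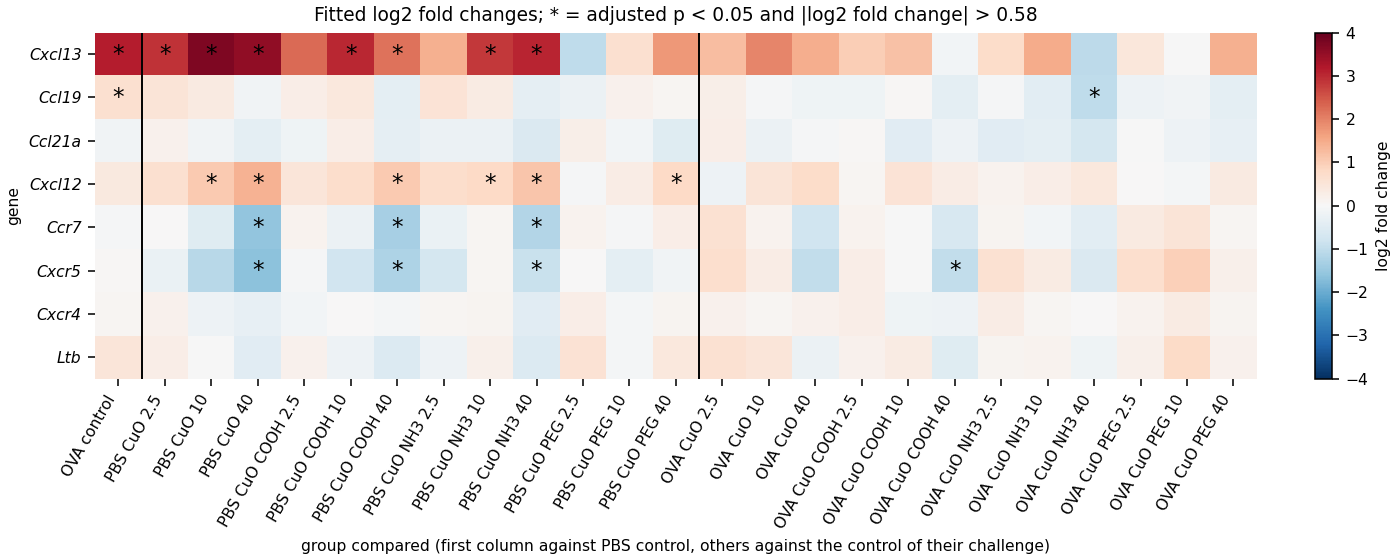
Log2 fold changes of the 8 genes (rows) in the 25 comparisons with controls (columns), as a colour scale from lower to higher, with an asterisk on each called value. The row of Cxcl13 holds 7 of the 19 calls in exposed PBS-challenged mice, and Ccr7 and Cxcr5 are called lower with 3 of the 4 materials at 40 μg. The row of Cxcl12 averages a pair of probes that disagree.

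Cxcl13 (chr5:95956939-95961068), the ligand of CXCR5, showed the widest range of the members, from a mean level of 7.20 in PBS-challenged controls to 11.83 in OVA-challenged mice given core CuO at 10 μg. Levels in PBS-challenged controls lay between 6.76 and 7.94 (median 7.16, n = 7) and in OVA-challenged controls between 9.66 and 11.72 (median 10.60, n = 8). The 2 groups did not overlap, and the log2 fold change in limma was 3.14 (SE 0.34, adjusted p = 7.8e-07), an 8.80-fold difference. On each of the 6 slides the OVA-challenged controls were higher in normalized values without the terms of the fit, by 3.03 to 3.68 on the log2 scale. As the samples are bulk tissue, more cells that express a gene and more RNA per cell cannot be told apart here or in the results that follow.

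Cxcl13 rose with core CuO alone at each dose in PBS-challenged mice. The 3 pools had levels of 9.03, 9.71 and 10.81 at 2.5 μg, 9.36, 10.13 and 10.25 at 10 μg, and 9.82, 10.32 and 10.08 at 40 μg. All 9 pools lay above the highest control, and 7 of them lay within the range of the OVA-challenged controls. The log2 fold changes were 2.88 (SE 0.51, adjusted p = 0.0040), 3.72 (SE 0.60, adjusted p = 0.00066) and 3.54 (SE 0.57, adjusted p = 0.00012) in limma at the 3 doses. Within slides the differences were 1.59 to 4.04 at 2.5 μg, 2.42 to 3.45 at 10 μg and 2.64 to 3.23 at 40 μg.

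CuO NH3 gave Cxcl13 levels of 9.42, 8.29 and 8.96 at 2.5 μg, 9.67, 9.87, 10.97 and 9.72 at 10 μg, and 10.10, 9.99 and 10.97 at 40 μg. Every one of these pools lay above the controls, and the called log2 fold changes were 2.82 (SE 0.41, adjusted p = 0.00010) at 10 μg and 3.04 (SE 0.41, adjusted p = 5.0e-06) at 40 μg, while 1.43 at 2.5 μg did not pass (adjusted p = 0.18). CuO NH3 at 2.5 μg was called with the batch terms swapped (1.69, adjusted p = 0.0088 in limma) and the random array block (1.40, adjusted p = 0.016). CuO COOH gave 8.20, 7.44 and 8.81 at 2.5 μg, 10.24, 9.47 and 9.01 at 10 μg, and 9.45, 8.89 and 9.44 at 40 μg. At 2.5 μg CuO COOH overlapped the controls and was not called (2.28, SE 0.61, adjusted p = 0.16), and at the higher doses it was called with 3.03 (SE 0.61, adjusted p = 0.0055) and 2.16 (SE 0.55, adjusted p = 0.011). With the random array block CuO COOH at 2.5 μg was called too (1.32, adjusted p = 0.042 in limma).

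At each dose Cxcl13 had its lowest mean level with CuO PEG among the 4 materials in PBS-challenged mice. Its levels were 7.43, 7.64 and 7.70 at 2.5 μg, 8.97, 7.31, 7.63 and 7.03 at 10 μg, and 8.76, 8.86 and 9.35 at 40 μg. The lower doses overlapped the controls, while the 3 pools at 40 μg lay above them with a log2 fold change of 1.73 (SE 0.48) that did not pass (adjusted p = 0.052 in limma). Under 6 of 9 alternative settings it was called, with adjusted p from 0.0012 with the random array block to 0.046 with dim probes left out and values of 1.12 to 1.79, and it was not with normexp (0.072), the deposited table (0.0505) or controls of the same slides only (0.24). The fitted values at the lower doses were -1.01 (95% interval -2.14 to 0.11) and 0.63 (0.03 to 1.22), neither called. That at 2.5 μg has the opposite sign to the mean levels (7.59 against 7.20 in controls) and to the differences on 2 of 3 slides (-0.22, 0.68 and 0.57), so no direction is given for it. In the order of the 13 PBS-challenged groups from the controls (7.20) over CuO PEG at 2.5 μg (7.59) to CuO NH3 at 40 μg (10.35), each group overlapped its neighbour in all 12 steps.

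In 4 of the 7 called PBS-challenged exposures, Cxcl13 lost its call when 1 pool was left out. With the array as a term, such a fit also leaves the other pool of that array without weight in the comparison. These were core CuO at 2.5 μg without replicate 3 (2.23, adjusted p = 0.18 in limma) and at 10 μg without replicate 2 (2.39, adjusted p = 0.063), CuO COOH at 10 μg without replicate 1 or without PBS-challenged control replicate 1 (both 3.40, adjusted p = 0.061) or without replicate 3 (2.66, adjusted p = 0.18), and CuO COOH at 40 μg without replicate 1 (1.93, adjusted p = 0.10) or without control replicate 1 (2.67, adjusted p = 0.18). Core CuO at 40 μg moved to 5.97 without replicate 2 and was still called. The call after OVA challenge remained in each of 15 such fits, at 2.92 to 3.26.

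**Figure D2:**
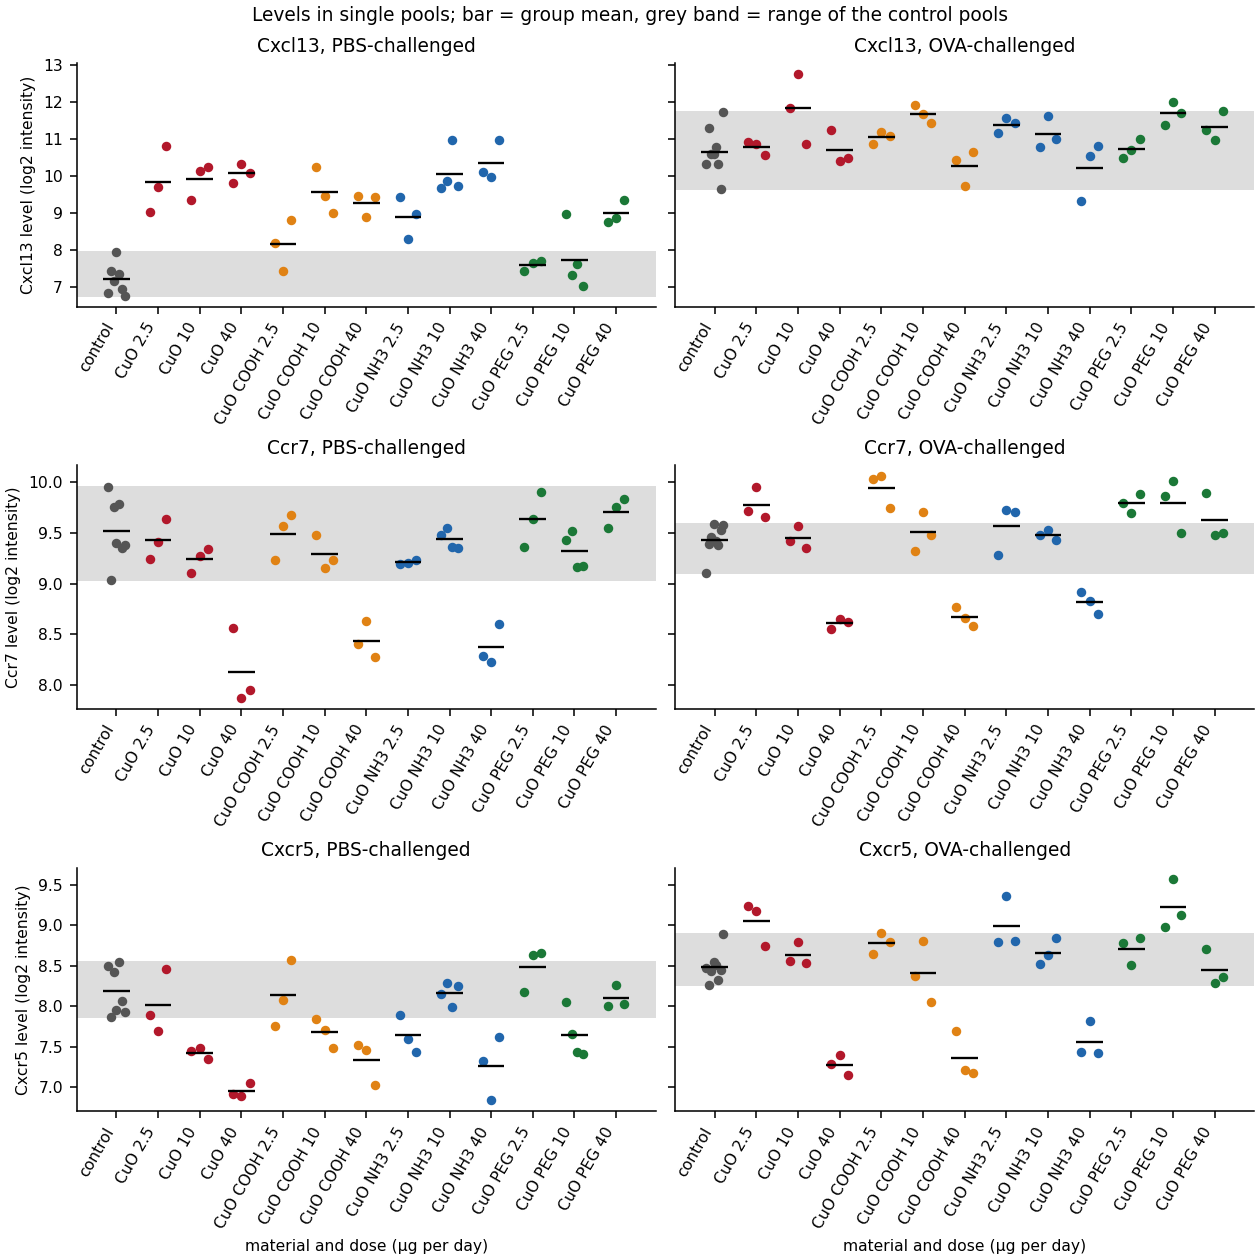
Levels (log2 intensity) of Cxcl13, Ccr7 and Cxcr5 in each pool (points) with the group mean (bar), by material and dose in μg per mouse, for PBS- and OVA-challenged mice, with the range of the controls of the same challenge as a grey band. Cxcl13 rises above the band of 6.76 to 7.94 in PBS-challenged mice with core CuO at every dose, and Ccr7 and Cxcr5 drop below their bands at 40 μg of core CuO, CuO COOH and CuO NH3 in both challenges.

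In OVA-challenged mice, where Cxcl13 was high without exposure, none of the 12 exposures was called. Mean levels ran from 10.22 with CuO NH3 at 40 μg to 11.83 with core CuO at 10 μg, and the OVA-challenged controls (10.66) stood in the lower part of this order. Each of the 12 neighbouring pairs overlapped, as did every exposed group with the controls. The log2 fold changes ranged from -1.04 with CuO NH3 at 40 μg (95% interval -1.95 to -0.14, adjusted p = 0.17) to 1.94 with core CuO at 10 μg (0.96 to 2.92, adjusted p = 0.096). Core CuO at 10 μg was called higher with the random array block (1.44, adjusted p = 0.017 in limma). CuO NH3 at 40 μg was called lower with the replicate block (-1.12, adjusted p = 0.030 in limma).

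The effect of CuO NH3 at 40 μg on Cxcl13 differed between the challenges by -4.09 (SE 0.57, adjusted p = 0.00014 in limma). It combined 3.04 in PBS-challenged mice with -1.04 in OVA-challenged mice, whose pools had levels of 9.31, 10.55 and 10.80. This difference remained called in each of 21 fits that left out 1 pool, at -4.52 to -3.59. For core CuO and CuO COOH at 40 μg the differences were -2.09 (95% interval -3.40 to -0.78, adjusted p = 0.15) and -2.27 (-3.63 to -0.92, adjusted p = 0.12), and for CuO PEG -0.30 (SE 0.68). Under other settings core CuO (-2.79, -2.83 and -2.80) and CuO COOH (-2.48, -2.46 and -2.46) were called at 40 μg too. These were the random array block, the swapped batch terms and the replicate block, with adjusted p from 0.00021 to 0.0054 in limma. Core CuO at 2.5 μg (-2.30, -2.53 and -2.28) and CuO NH3 at 10 μg (-1.97, -2.38 and -2.12) were also called there. Whether CuO NH3 differed in this effect from the other materials was not tested.

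Ccl19 (chr4:42754525-42756365), 1 of the ligands of CCR7, was dim on these arrays, with a median raw intensity of 140. Its levels were 6.80 to 7.10 (median 6.88) in PBS-challenged controls and 7.31 to 7.95 (median 7.52) in OVA-challenged controls. The groups did not overlap, and the log2 fold change was 0.64 (SE 0.13, adjusted p = 0.0017 in limma), with the OVA-challenged controls higher on all 6 slides by 0.44 to 0.85. The value lay close to the fold threshold, and the call was lost at 0.45 without OVA-challenged control replicate 2, at 0.50 without PBS-challenged control replicate 3, and at 0.25 with the controls of slides 4 to 6 alone.

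With CuO NH3 at 40 μg in OVA-challenged mice, Ccl19 had levels of 6.42, 6.70 and 6.83, all below the OVA-challenged controls and 2 of them below the PBS-challenged controls. It fell by 1.02 on the log2 scale (SE 0.17, adjusted p = 0.00090 in limma), and kept its call in each of 11 fits that left out 1 pool (-1.11 to -0.93). At the same dose the pools with core CuO (7.30, 7.07 and 7.15) and CuO COOH (7.12, 6.79 and 7.30) also lay below the lowest OVA-challenged control, with fitted values of -0.19 and -0.39 that did not pass. In PBS-challenged mice at 40 μg the levels with core CuO (6.58, 6.76 and 6.61), CuO COOH (6.52, 6.67 and 6.77) and CuO NH3 (6.46, 6.67 and 6.76) lay below all controls, though with fitted changes of -0.15, -0.39 and -0.37 that did not pass. At 2.5 μg, by contrast, all pools with core CuO (7.20 to 7.47) and CuO NH3 (7.38 to 7.46) lay above the highest PBS-challenged control. Those with CuO COOH (7.07 to 7.27) and CuO PEG (6.71 to 6.82) overlapped the controls. None was called at 2.5 μg, but CuO NH3 was with the random array block (0.64, adjusted p = 0.00080 in limma) and the replicate block (0.75, adjusted p = 4.4e-05).

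Ccl21a (chr4:42772860-42773991), the other ligand of CCR7, was called in no comparison. Its mean levels stayed between 11.23 and 12.13 over the 26 groups, and its log2 fold changes against controls ran from -0.70 with CuO NH3 at 40 μg in OVA-challenged mice (95% interval -1.19 to -0.20, adjusted p = 0.085) to 0.28 with CuO COOH at 10 μg in PBS-challenged mice. With CuO NH3 at 40 μg the PBS-challenged pools (11.37, 11.28 and 11.59) and the OVA-challenged pools (11.17, 11.28 and 11.23) lay below all controls of their challenge, which began at 11.83 and 11.43. So did the PBS-challenged pools at 40 μg of CuO COOH (11.34, 11.67 and 11.52) and CuO PEG (11.43, 11.56 and 11.74) and the OVA-challenged pools at 10 μg of CuO NH3 (11.39, 11.22 and 11.30). Under other settings Ccl21a was called lower with CuO NH3 (-0.65, loess) and CuO COOH (-0.70, random array block) at 40 μg in PBS-challenged mice. The genes most alike over the 26 groups were Gm13304 (r = 0.967) and Gm1987 (r = 0.952), for the first of which RefSeq lists the older names Ccl21b and Ccl21c. The Ccl21 genes are near-identical copies, and whether the Ccl21a probe also reads the other copies was not tested, so the values are uncertain as to the copy. The lymphatic endothelium, a source of CCL21, was read through Lyve1, Prox1, Flt4, Mmrn1 and Reln, and 0 of these 5 markers was called in the challenge comparison, at 40 μg against controls or between CuO PEG and core CuO at 40 μg. Their mean level nevertheless lay below all PBS-challenged controls (7.85 to 8.05) with each of the 4 materials at 40 μg, whose highest pools were at 7.79 with core CuO, 7.72 with CuO COOH, 7.83 with CuO NH3 and 7.71 with CuO PEG. In OVA-challenged mice it lay below the controls (7.68 to 7.82) with core CuO and CuO COOH and overlapped them with CuO NH3 and CuO PEG. Over the 26 group medians Ccl21a correlated with this list at r = 0.753, with the lung parenchyma list at 0.783 and with the neutrophil list at -0.840, and their part in the Ccl21a values was not tested.

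Cxcl12 (chr6:117168535-117181368), the ligand of CXCR4, was measured by a pair of probes drawn from different RefSeq transcripts, and these disagreed. Averaged over the probes, Cxcl12 was called higher in 6 of the 12 exposed PBS-challenged groups: core CuO at 10 μg (1.04, SE 0.26) and 40 μg (1.39, SE 0.25), CuO NH3 at 10 μg (0.78, SE 0.18) and 40 μg (1.11, SE 0.18), CuO COOH at 40 μg (1.04, SE 0.24) and CuO PEG at 40 μg (0.81, SE 0.21). With the brighter probe alone none of these 6 was called and each changed sign, to between -0.55 and -0.089. The gene-level values are therefore the mean of unlike readings, and the probes are described apart.

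The dimmer Cxcl12 probe lay between 8.72 and 9.59 (median 9.04) in PBS-challenged controls and between 9.77 and 10.98 (median 10.48) in OVA-challenged controls, a log2 fold change of 1.41 (SE 0.22, adjusted p = 6.7e-05 in limma over all probes). In PBS-challenged mice at 40 μg its levels were 11.24, 11.78 and 11.56 with core CuO, 11.66, 11.07 and 11.36 with CuO COOH, 11.73, 11.55 and 11.68 with CuO NH3, and 10.60, 10.41 and 10.41 with CuO PEG. All 12 of these pools lay above the controls, and the probe was called in 9 of 12 PBS-challenged exposures, up to 3.16 with core CuO at 40 μg, where 3.19% of all probe and group combinations were called. In OVA-challenged mice it was called in 4 of 12 exposures, by 0.99 to 1.47, where 0.817% of all probe and group combinations were called.

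For the brighter Cxcl12 probe the controls had 13.59 to 14.06 (median 13.91) after PBS challenge and 13.07 to 13.40 (median 13.23) after OVA challenge. It fell by 0.61 on the log2 scale with OVA challenge (SE 0.13, adjusted p = 0.0023 in limma over all probes), in a comparison that called 3.71% of all probes, and both Cxcl12 probes were thus called in opposite directions. At 40 μg in PBS-challenged mice its levels were 13.51, 13.59 and 13.44 with core CuO, 13.54, 13.47 and 13.48 with CuO COOH, 13.40, 13.45 and 13.55 with CuO NH3, and 13.79, 13.70 and 13.78 with CuO PEG. In the fit over all probes it was called in 0 of 24 exposures, with values of -0.55 to 0.11 in PBS-challenged and -0.68 to -0.03 in OVA-challenged mice. In the fit over the brightest probe of each gene it was called lower in 1, OVA-challenged mice given CuO NH3 at 10 μg (-0.58, adjusted p = 0.046 in limma). Over the 26 group means the probes correlated at r = -0.566, whereas the pair of Ccr7 probes correlated at 0.985 and the pair of Cxcr4 probes at 0.819.

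**Figure D3:**
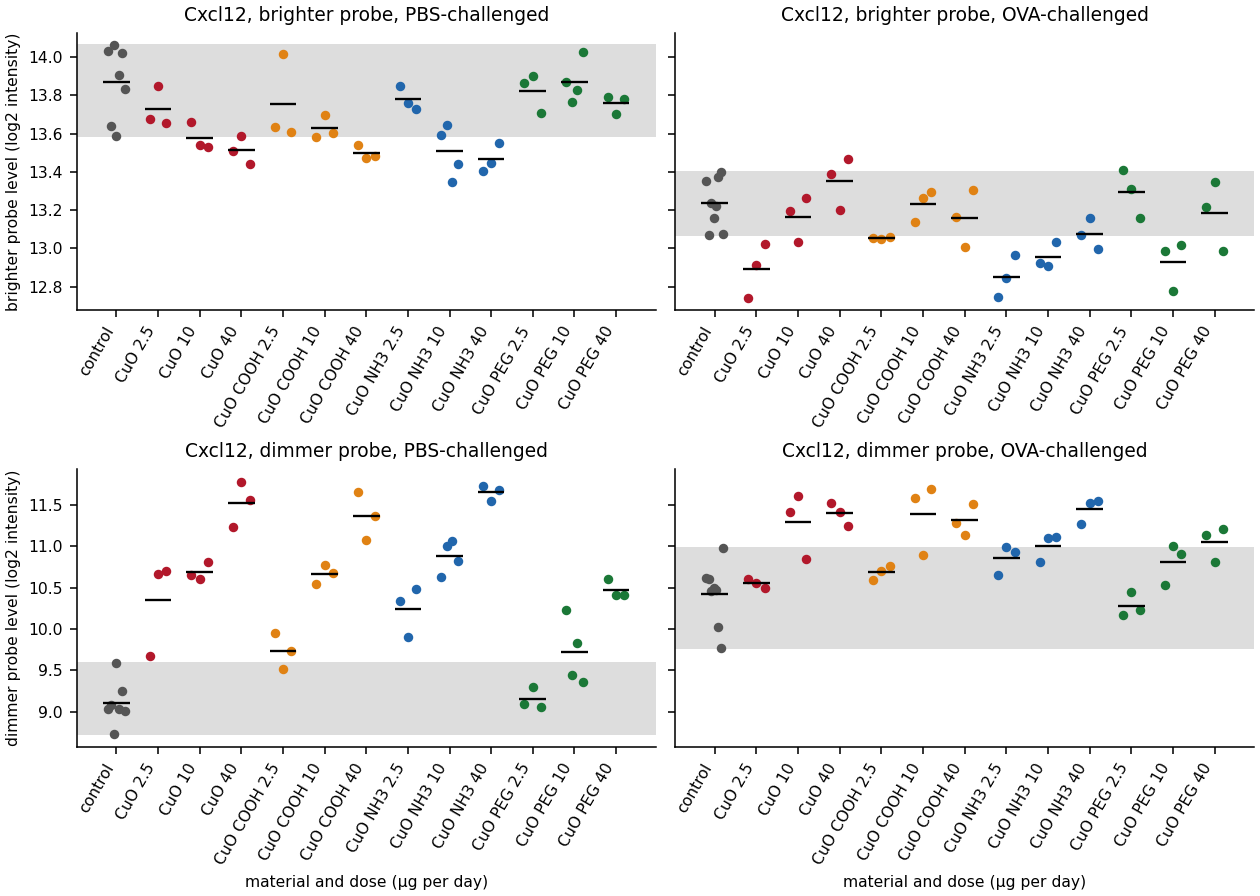
Levels (log2 intensity) of the brighter and the dimmer Cxcl12 probe in each pool (points) with the group mean (bar), by material and dose in μg per mouse and by challenge, with the range of the controls as a grey band. In PBS-challenged mice the dimmer probe climbs from 8.72 to 9.59 in controls to 11.07 to 11.78 at 40 μg of core CuO, CuO COOH and CuO NH3, while the brighter probe lies between 13.40 and 13.59 there against 13.59 to 14.06 in controls.

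As gene-level values, the Cxcl12 calls with CuO NH3 at 40 μg stood in every fit that left out 1 pool. The call with CuO PEG at 40 μg was lost in 6 of 10 such fits, those without any of its 3 replicates or without PBS-challenged control replicate 2, 3 or 5 (0.72 to 0.88), and each of the other 4 in 1 or 2: core CuO at 10 μg without replicate 3 (1.03) or control replicate 3 (0.90), core CuO at 40 μg without replicate 2 (0.76), CuO COOH at 40 μg without replicate 1 (0.70; it was at 1.83 and called without control replicate 1) and CuO NH3 at 10 μg without replicate 4 (0.83).

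Ccr7 (chr11:99144199-99155077), the receptor of naive and central memory T cells and of migrating dendritic cells, had overlapping levels in the control groups, 9.04 to 9.95 (median 9.40) after PBS challenge and 9.10 to 9.59 (median 9.44) after OVA challenge (-0.03, 95% interval -0.42 to 0.36). At 40 μg in PBS-challenged mice the levels were 8.56, 7.88 and 7.95 with core CuO, 8.41, 8.63 and 8.28 with CuO COOH, and 8.28, 8.23 and 8.60 with CuO NH3. All 9 pools lay below the lowest control, and Ccr7 fell by 1.58 (SE 0.31, adjusted p = 0.00089), 1.33 (SE 0.30, adjusted p = 0.0044) and 1.19 (SE 0.22, adjusted p = 0.00027) on the log2 scale in limma. CuO PEG at 40 μg gave 9.54, 9.75 and 9.83, within the range of the controls (0.28, 95% interval -0.26 to 0.82).

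At 2.5 and 10 μg no Ccr7 value was called in either challenge, with log2 fold changes of -0.49 to 0.60. In the order of PBS-challenged groups, the 3 groups at 40 μg of core CuO, CuO NH3 and CuO COOH (8.13, 8.37 and 8.44) came first and were apart from the next group (9.21), the only neighbours of 12 that did not overlap. The OVA-challenged groups had the same break, between CuO NH3 at 40 μg (8.81) and the OVA-challenged controls (9.43).

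In the OVA-challenged mice at 40 μg, Ccr7 levels were 8.55, 8.65 and 8.62 with core CuO, 8.77, 8.66 and 8.58 with CuO COOH, and 8.91, 8.83 and 8.70 with CuO NH3. All 9 pools lay below the lowest OVA-challenged control at 9.10, but the fitted values of -0.79, -0.63 and -0.43 did not pass (adjusted p = 0.24, 0.084 and 0.33 in limma). With slide and array position in place of the array, the same comparisons gave -0.82, -0.76 and -0.62 and were called (adjusted p = 0.00044, 0.00039 and 0.0025). The difference in effect between the challenges was 0.79 (95% interval 0.07 to 1.51, adjusted p = 0.44) with core CuO, 0.70 (-0.04 to 1.44, adjusted p = 0.56) with CuO COOH and 0.76 (0.12 to 1.39, adjusted p = 0.29) with CuO NH3, none of them called.

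Cxcr5 (chr9:44511787-44526444), the receptor of CXCL13 on B cells and follicular helper T cells, was called lower in the same 3 PBS-challenged groups as Ccr7. Levels were 7.86 to 8.55 (median 8.07) in PBS-challenged and 8.26 to 8.90 (median 8.47) in OVA-challenged controls, with a fitted difference of 0.04 (95% interval -0.46 to 0.54). The PBS-challenged pools at 40 μg had 6.91, 6.89 and 7.05 with core CuO, 7.52, 7.46 and 7.02 with CuO COOH, and 7.33, 6.84 and 7.61 with CuO NH3. All 9 lay below the controls, and Cxcr5 fell by 1.64 (SE 0.40, adjusted p = 0.0055), 1.23 (SE 0.39, adjusted p = 0.040) and 0.90 (SE 0.28, adjusted p = 0.021) on the log2 scale in limma. With CuO PEG the levels of 8.00, 8.27 and 8.03 overlapped the controls (-0.14, 95% interval -0.84 to 0.55).

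In PBS-challenged mice at 10 μg, Cxcr5 levels also lay below all controls with core CuO (7.44, 7.48 and 7.35) and CuO COOH (7.84, 7.71 and 7.48), though neither passed (95% intervals of the log2 fold change -1.97 to -0.23 and -1.64 to 0.14). Both were called lower with the random array block (-0.99 and -0.78) and the replicate block (-0.94 and -0.72). Core CuO was so with the batch terms swapped as well (-0.76). CuO NH3 at 10 μg (8.15, 8.28, 7.99 and 8.25) overlapped the controls. CuO PEG at 10 μg (8.06, 7.65, 7.43 and 7.41) had 3 of 4 pools below the lowest control and was lower than the controls on each of 3 slides (differences of -0.58 to -0.17), with a fitted value of -0.39 that did not pass (95% interval -0.80 to 0.03). In OVA-challenged mice at 40 μg the levels were 7.29, 7.40 and 7.14 with core CuO, 7.69, 7.21 and 7.17 with CuO COOH, and 7.43, 7.81 and 7.42 with CuO NH3, all below the OVA-challenged controls. Cxcr5 was called with CuO COOH (-0.97, SE 0.28, adjusted p = 0.038 in limma) but not with core CuO (-0.97, SE 0.40, adjusted p = 0.27) or CuO NH3 (-0.57, adjusted p = 0.32), and with slide and array position in place of the array those of core CuO (-1.21) and CuO NH3 (-0.94) were called too. CuO PEG at 10 μg in OVA-challenged mice lay above the controls in all 3 pools (8.98, 9.58 and 9.13), with a fitted value of 0.95 that did not pass (95% interval 0.24 to 1.66, adjusted p = 0.67). With the random array block (0.78, adjusted p = 0.0086 in limma) and the replicate block (0.83, adjusted p = 0.0013) it was called higher. No Cxcr5 difference between the challenges was called with the array as a term. With the random array block, swapped batch terms and replicate block, that of CuO PEG at 10 μg was called (1.28, 1.29 and 1.33). So was that of CuO NH3 at 2.5 μg (1.12, 1.04 and 1.15). That of core CuO at 10 μg was called with both blocks (1.13 and 1.18).

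With the array as a term, the calls of lower Cxcr5 and Ccr7 at 40 μg were open to the loss of 1 array. Leaving out 1 pool there also leaves the other pool of its array without weight. Under the 9 alternative settings, the Ccr7 calls in PBS-challenged mice remained in all 9. So did those of Cxcr5 with core CuO and CuO COOH, and that with CuO NH3 remained in 8. Without replicate 2 of the PBS-challenged core CuO group, Ccr7 was at -0.31 (adjusted p = 0.82 in limma) and Cxcr5 at -0.59 (adjusted p = 0.74), and without control replicate 3 Cxcr5 was at -1.25 (adjusted p = 0.094). With CuO NH3, leaving out replicate 1 or control replicate 5 gave -0.77 for Ccr7 (adjusted p = 0.15) and -0.43 for Cxcr5 (adjusted p = 0.61), and leaving out replicate 2 gave -0.88 for Cxcr5 (adjusted p = 0.054). With CuO COOH, Ccr7 lost its call without control replicate 1 (-1.29, adjusted p = 0.25), and Cxcr5 did in 5 of 10 fits, those without any of its 3 replicates or without control replicate 1 or 3 (-1.53 to -0.54). In OVA-challenged mice the Cxcr5 call with CuO COOH was lost without any of its 3 replicates or OVA-challenged control replicate 1 (-1.23 to -0.80). Against controls of the same slide, in normalized values without the terms of the fit, Ccr7 differed in PBS-challenged mice by -1.72 to -1.12 with core CuO, -1.75 to -0.35 with CuO COOH and -1.25 to -0.92 with CuO NH3, and Cxcr5 by -1.91 to -0.65, -1.58 to -0.26 and -0.95 to -0.61.

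Markers of other cells moved with these receptors. In PBS-challenged mice at 40 μg, where 14.0% (core CuO), 10.3% (CuO COOH), 13.2% (CuO NH3) and 2.18% (CuO PEG) of all genes were called in either direction, 6 of 10 T cell genes were called lower with each of core CuO, CuO COOH and CuO NH3, among them Cd3d (-1.96, -1.34 and -1.23), a chain of the T cell receptor complex, and 0 with CuO PEG. Of 10 B cell genes, 5, 2 and 4 were called lower, among them Ms4a1 with core CuO (-1.99) and CuO NH3 (-1.57), which encodes CD20, and Fcrla with CuO COOH (-1.39), and 0 with CuO PEG. The mean level of the T cell list was 8.12 to 8.61 in PBS-challenged controls and 7.33 to 7.63, 7.57 to 7.88 and 7.63 to 7.76 in the 3 exposed groups, and that of the B cell list 8.08 to 8.86 against 7.44 to 7.69, 7.53 to 7.94 and 7.45 to 7.94. Neither list overlapped between controls and these groups, and the part of these cells in the receptor values was not tested. All 20 genes were well above background in at least 78 of 89 samples, except Blk with 47.

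Other lists shifted in the same lungs. Of 9 dendritic cell genes, 2, 2 and 3 were called lower at 40 μg of core CuO, CuO COOH and CuO NH3 in PBS-challenged mice, with Cd83 at -1.54, -1.41 and -1.18 and Clec9a at -1.39, -1.26 and -1.19, and Fscn1 was called higher with CuO NH3 (0.82). The markers Xcr1 and Ccl22 of that list were well above background in only 5 and 18 of 89 samples, and Tnfrsf17 of the plasma cell list in 23. Of 9 neutrophil genes, 7, 2 and 5 were called higher, with a list level of 10.01 to 10.35 in controls and 10.77 to 11.32, 10.51 to 10.78 and 11.11 to 11.52. With CuO PEG at 40 μg that list level was 10.38 to 10.57, also above all controls. Of 8 alveolar macrophage genes 4, 4 and 5 were called lower, and 4 with CuO PEG. Of 6 plasma cell genes 3, 2 and 3 were called lower, and of 8 fibroblast genes 3, 2 and 3 were called higher and 3, 0 and 1 lower, beside the same shares of all genes. Their part in the values of the homing genes was not tested.

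In OVA-challenged mice at 40 μg, 3, 6 and 6 of the 10 T cell genes were called lower with core CuO, CuO COOH and CuO NH3 and 0 with CuO PEG, where 1.58%, 3.81%, 3.98% and 0.642% of all genes were called. The B cell list had 0 of 10 genes called with any of the 4 materials there, while its level of 7.86 to 8.06, 7.57 to 8.09 and 7.94 to 8.15 lay below the OVA-challenged controls at 8.42 to 8.79. Of the dendritic cell list 1, 4 and 3 genes were called lower, Cd83 among them with CuO COOH (-1.30) and CuO NH3 (-1.34).

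Over the 26 group medians, Ccr7 correlated with the T cell list at r = 0.933 and Cxcr5 with the B cell list at r = 0.975 and with the T cell list at 0.954. Cxcl13 correlated with the T cell list at 0.257 and with the B cell list at 0.428, but at 0.936 with the list of the lymphotoxin and non-canonical NF-κB pathway, 0.804 with that of atypical receptors and other homeostatic chemokine genes, 0.624 with neutrophils, -0.703 with lymphatic endothelium and -0.720 with lung parenchyma. The groups share arrays, controls and exposures, so these values describe the 26 groups and carry no test.

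**Figure D4:**
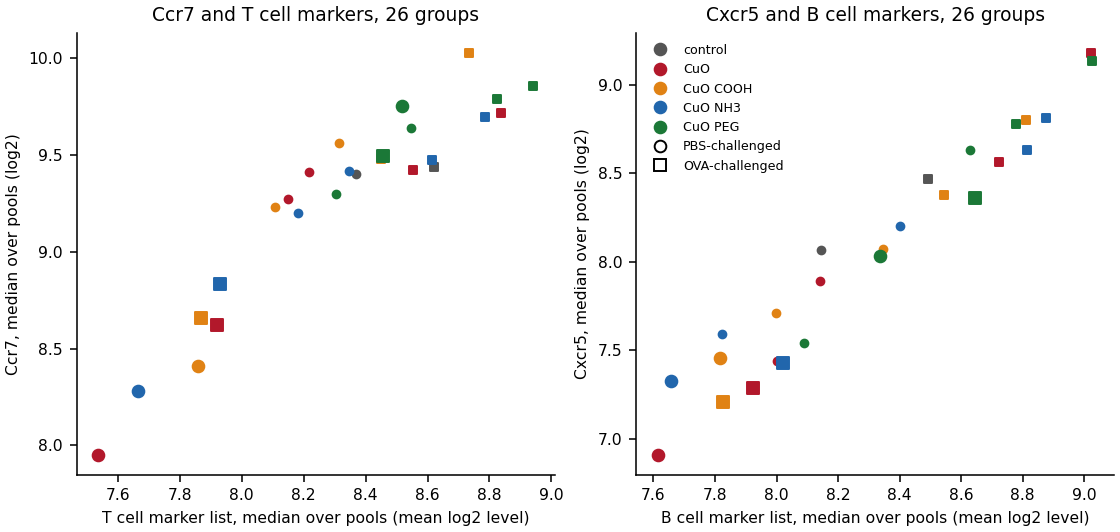
Median level of Ccr7 against the T cell list and of Cxcr5 against the B cell list (log2 intensity) in each of the 26 groups, with larger symbols for 40 μg. The groups at 40 μg of core CuO, CuO COOH and CuO NH3 lie at the low end of both axes, and r is 0.933 for Ccr7 and 0.975 for Cxcr5.

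Cxcr4 (chr1:128588199-128592299), the receptor of CXCL12, was called in no comparison. Its mean levels lay between 7.29 and 8.06 over the 26 groups. The largest departure from controls was with CuO NH3 at 40 μg in PBS-challenged mice, where levels of 7.23, 7.22 and 7.41 lay below the controls at 7.65 to 7.89, at -0.46 (SE 0.15, adjusted p = 0.028 in limma), which is under the fold threshold (-0.72 and called with the replicate block). The control groups did not differ in a way that passed (0.08, 95% interval -0.19 to 0.35).

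Ltb (chr17:35194507-35196305), the lymphotoxin subunit of lymphocytes, was also called in no comparison. Levels were 11.91 to 12.64 (median 12.29) in PBS-challenged and 12.51 to 13.02 (median 12.72) in OVA-challenged controls, which overlapped (0.48, 95% interval -0.01 to 0.97, adjusted p = 0.23 in limma). At 40 μg in PBS-challenged mice, the levels of 11.92, 11.86 and 11.90 with core CuO, 11.95, 11.81 and 11.43 with CuO COOH and 11.85, 11.44 and 11.99 with CuO NH3 lay between 11.43 and 11.99, below all but 2 of the controls, with fitted values of -0.45, -0.55 and -0.56 that did not pass (for CuO COOH -0.74 with the random array block and -0.64 with the replicate block, both called). CuO PEG at 40 μg (12.22, 12.56 and 12.49) lay within the controls. In OVA-challenged mice at 40 μg, core CuO (12.14 to 12.48) and CuO COOH (12.00 to 12.49) lay below all controls. CuO NH3 (12.01 to 12.55) overlapped them. None was called there, but CuO COOH was with the random array block (-0.70, adjusted p = 0.0020 in limma). With the random array block and the replicate block, CuO PEG was called above core CuO at 40 μg. The values were 0.83 and 0.80 in PBS-challenged and 0.77 and 0.80 in OVA-challenged mice. The Ltb level over the 26 group medians correlated with the B cell list at r = 0.929.

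The materials were compared at matched mass dose and challenge, each modified material against core CuO, which made 18 comparisons and 144 values for the members. Of these 6 were called, where 0.501% of all gene and comparison combinations were called, and all 6 were of CuO PEG. The CuO PEG comparisons that held them called 1.86%, 1.06% and 4.39% of all genes at 2.5, 10 and 40 μg in PBS-challenged mice. At 40 μg in OVA-challenged mice the share was 0.393%. The values are log2 differences, modified material minus core CuO, with slide and array position as terms, and their adjusted p in limma is over all genes within each comparison. No further adjustment over the 18 comparisons was made. The paper measured less copper in the coated materials than in core CuO, and the least in CuO PEG. Coating and copper amount thus differ together in these comparisons and cannot be told apart. With the array in place of slide and position 4 of the 6 values did not pass: Cxcl13 at 10 μg (-3.10), Ccr7 in OVA-challenged mice (0.87) and Cxcr5 in PBS- and OVA-challenged mice (the latter 1.17).

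Cxcl13 was lower with CuO PEG than with core CuO in PBS-challenged mice at 2.5 μg, by -2.26 (SE 0.61, 95% interval -3.48 to -1.04, adjusted p = 0.023), and at 10 μg, by -2.18 (SE 0.55, -3.29 to -1.07, adjusted p = 0.025). The pools did not overlap at either dose. At 40 μg the difference of -1.09 (-2.23 to 0.06, adjusted p = 0.23) did not pass although the pools again did not overlap, while it was called with the random array block (-1.52, adjusted p = 0.014 in limma) and the replicate block (-1.61, adjusted p = 0.0057). The call at 2.5 μg was lost without core CuO replicate 3 (-1.54) or CuO PEG replicate 1 or 3 (-2.18 and -2.37), and that at 10 μg in 4 of 7 fits that left out 1 pool, those without core CuO replicate 2 or 3 or CuO PEG replicate 2 or 4 (-2.05 to -1.95). In OVA-challenged mice the differences were -0.05 (-1.43 to 1.32), -0.13 (-1.38 to 1.12) and 0.62 (-0.62 to 1.87) at the 3 doses.

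Ccr7 was higher with CuO PEG than with core CuO at 40 μg in both challenges, by 1.58 (SE 0.21, 95% interval 1.15 to 2.00, adjusted p = 1.4e-06) in PBS-challenged and by 1.01 (SE 0.23, 0.55 to 1.48, adjusted p = 0.029) in OVA-challenged mice. The OVA-challenged pools with CuO PEG had 9.89, 9.48 and 9.49, above the 8.55 to 8.65 of core CuO. Cxcr5 was higher likewise, by 1.15 (SE 0.27, 0.60 to 1.70, adjusted p = 0.0029) and 1.18 (SE 0.30, 0.58 to 1.77, adjusted p = 0.048), with 8.71, 8.28 and 8.36 in the OVA-challenged pools with CuO PEG. Neither receptor overlapped between the materials in either challenge. Both calls in PBS-challenged mice stood in each of 6 fits that left out 1 pool, while in OVA-challenged mice that of Ccr7 was lost without core CuO replicate 1 or 3 or CuO PEG replicate 1 (0.80 to 1.02) and that of Cxcr5 also without CuO PEG replicate 3 (0.97 to 1.22).

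The T and B cell markers were on the same side. Of the T cell list 8 of 10 genes were called higher with CuO PEG than with core CuO at 40 μg in PBS-challenged mice, Cd5 (1.54), Cd3d (1.53) and Cd3g (1.41) the most, and of the B cell list 6 of 10, with Ms4a1 (1.56) and Cd79b (1.24), where 4.39% of all genes were called in either direction. In OVA-challenged mice these were 3 and 0 of 10, where 0.393% of all genes were called. Their part in the receptor values was not tested.

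Cxcl12 at 2.5 μg in PBS-challenged mice differed by -0.55 (adjusted p = 0.033) and Cxcr4 at 40 μg by 0.45 (adjusted p = 0.028), both under the fold threshold. The Cxcl12 value again averages the probes that disagreed. The mean level of the dimmer probe was 9.15 with CuO PEG against 10.34 with core CuO, and that of the brighter probe 13.82 against 13.73. CuO COOH and CuO NH3 were called against core CuO for no member at any dose. With the random array block and the replicate block CuO NH3 was called against core CuO in PBS-challenged mice, for Cxcl13 at 2.5 μg (-1.58 in both, adjusted p = 0.022 and 0.0094 in limma) and for Cxcr5 at 10 μg (0.96 and 0.94, adjusted p = 0.0016 and 0.0010), so calls under other settings were not limited to CuO PEG. At 40 μg in PBS-challenged mice, the intervals for CuO COOH were -1.77 to 0.14 for Cxcl13, -0.05 to 0.66 for Ccr7 and -0.07 to 0.84 for Cxcr5, and those for CuO NH3 -0.89 to 1.45, -0.19 to 0.67 and -0.25 to 0.87. Differences of these sizes cannot be told from 0 with 3 pools a group. CuO NH3 and CuO PEG lay on other slides than core CuO, so these comparisons rest on the slide term and the shared controls.

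**Figure D5:**
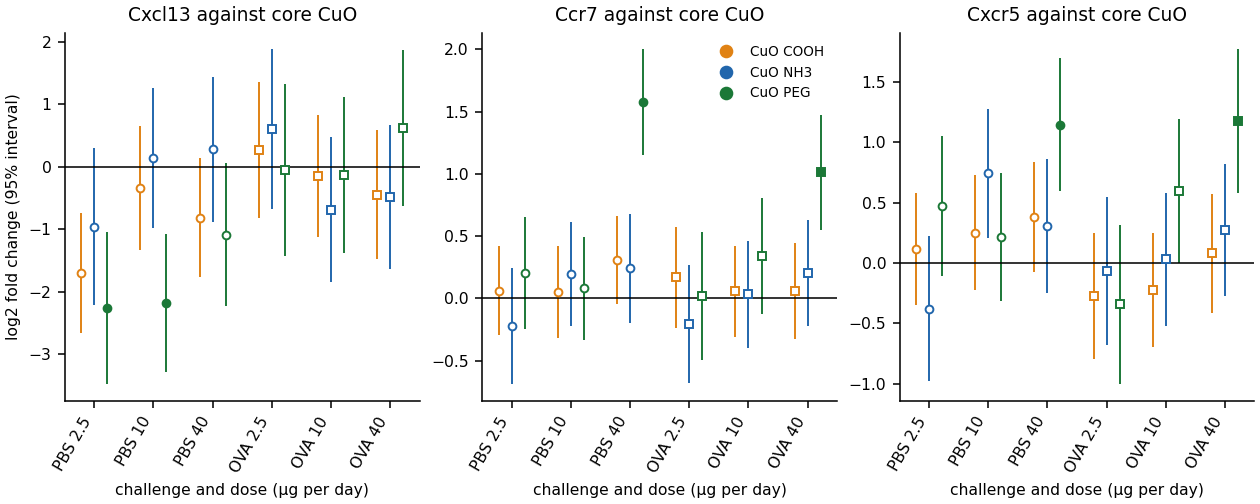
Log2 difference of each modified material from core CuO at the same dose for Cxcl13, Ccr7 and Cxcr5, with 95% intervals as bars, circles for PBS-challenged and squares for OVA-challenged mice, and filled symbols for called differences. The filled symbols are those of CuO PEG, for Cxcl13 at 2.5 and 10 μg (-2.26 and -2.18) and for Ccr7 and Cxcr5 at 40 μg (1.01 to 1.58).

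Genes that act beside the members were counted in 3 lists, each read against the share of all genes called in the same comparison: 5.22% with OVA challenge, 14.0%, 10.3%, 13.2% and 2.18% at 40 μg of core CuO, CuO COOH, CuO NH3 and CuO PEG in PBS-challenged mice, and 1.58%, 3.81%, 3.98% and 0.642% in OVA-challenged mice. Of 16 genes of the lymphotoxin and non-canonical NF-κB pathway, 4 were called higher and 0 lower with OVA challenge: Tnfsf13b (0.89), which encodes the B cell survival factor BAFF, Nfkb2 (0.68), the NF-κB subunit of the non-canonical route, Tnfrsf11a (0.64) and Lta (0.60), the partner of lymphotoxin beta. With core CuO at 40 μg in PBS-challenged mice, 5 were higher and 1 lower, led by Tnfsf14 (1.60), which encodes LIGHT, another ligand of the lymphotoxin beta receptor, Tnf (1.34) and, lower, Tnfrsf13c (-1.07), the BAFF receptor of B cells. CuO COOH had 2 of 16 higher and 0 lower, a share near that of all genes, CuO NH3 4 higher and 1 lower, and CuO PEG 1 higher, Tnfrsf11a (0.79). In OVA-challenged mice at 40 μg the counts were 0, 1 higher and 1 lower, 1 higher and 1 lower, and 0.

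Among 13 atypical receptors and other homeostatic chemokine genes, OVA challenge called 3 higher: Ackr1 (1.38), a chemokine-binding receptor of venules, Cxcr6 (1.16) and its ligand Cxcl16 (0.77). At 40 μg in PBS-challenged mice, Ackr4, a scavenger of CCL19 and CCL21, was lower with core CuO (-1.62), CuO COOH (-0.99) and CuO NH3 (-1.47), and Ccl20, the ligand of CCR6, was higher (2.90, 1.33 and 1.90). In OVA-challenged mice Ackr4 was called lower at 40 μg with CuO COOH (-1.05), CuO NH3 (-0.70) and CuO PEG (-0.80). The counts at 40 μg in PBS-challenged mice were 2 higher and 1 lower with core CuO, 2 and 2 with CuO COOH and with CuO NH3, and 0 with CuO PEG.

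Of 14 genes of lymphocyte entry and lymphoid stroma, 1 was called with OVA challenge, Mfge8 (-0.63), and 0 higher. In PBS-challenged mice at 40 μg, core CuO and CuO COOH each had 2 higher and 3 lower and CuO NH3 3 higher and 5 lower. Pdpn, which encodes podoplanin of stromal and lymphatic cells, was higher with core CuO (0.90) and CuO COOH (1.37), and Bst1 was higher with all 3 (1.16, 1.24 and 1.21). Itgb7, an integrin chain of homing lymphocytes, was lower with all 3 (-1.02, -1.24 and -0.94). CuO PEG called 0 of the 14. Some genes of the 3 lists were well above background in few of the 89 samples. These were Madcam1 (1) and Chst4 (8) here, Ccr10 (23) and Ccl28 (34) among the chemokine genes, and Tnfsf11 (21) in the lymphotoxin list.

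The genes whose group means were most like those of a member were sought among 15465 genes over the 26 groups. For Cxcl13 they were C1qa (r = 0.951) and C1qb (0.948), subunits of complement C1q made by macrophages, and Slc26a4 (0.946), an anion exchanger. Ccl19 was most like H2-Ab1 (0.902), an MHC class II chain, Cd83 (0.896) and Slc1a2 (0.884). Those for Ccr7 included Ms4a4b (0.951) and Nup210 (0.948), and those for Cxcr5 included Ptprcap (0.984) and Ms4a1 (0.980). Ltb was most like Spib (0.963), a transcription factor of B cells, Ptprc (0.955) and Dusp2 (0.947).

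For Ccl21a Cracr2b (0.943) followed the Gm genes named above. Cxcr4 was closest to Itgb7 (0.860), P2rx4 (0.860) and Cyfip2 (0.856), and Cxcl12, as the mean of its probes, to Fndc4 (0.934), Ctps (0.930) and Rcan1 (0.920). Between members, Cxcr5 and Ltb correlated at 0.891 and Ccr7 and Cxcr5 at 0.866, while Cxcl13 and Ccr7 did at 0.079. All of these values share groups, arrays and controls and are given as descriptions.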

How the data were processed

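The authors measured lung RNA of 89 pools on 2-colour Agilent arrays, and the deposited scanner output holds, unnormalized, the median foreground intensity of each spot and channel (Feature Extraction 12.0.2.2 in the file headers). Their own normalized log2 values, deposited per spot, served as an alternative. The number of arrays limits the precision. No background was subtracted, and log2 intensities of all 89 samples were quantile normalized together (limma 3.58.1 in R 4.3.3). Control spots (3671) and outlier flags were excluded, and probes with a gene in RefSeq (assembly GRCm38.p6) were averaged to 22911 genes.

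Linear models with 26 groups were fitted over all genes (lmFit and eBayes). Dye and array were terms for comparisons with controls and between challenges, and dye, slide and array position for those between materials. p-values were Benjamini-Hochberg adjusted over all genes of a comparison. Groups came from the deposited labels, which do not tie pools to cages or days, so p-values measure the spread between pools. The labels give replicate numbers, by which the samples were not treated as paired. Same-numbered samples correlated between -0.32 and 0.673, with no comparison in which all exceeded 0.1. The OVA- and PBS-challenged controls had a median of 0.392 over 7 pairs. With so few pairs the check cannot exclude a batch shared by replicate number. Figures were drawn in Python 3.11.15 with matplotlib 3.10.9, and the scripts were tested on simulated data.

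Named were the 8 members, of each list at most 3 called genes with the largest change, and for each member the 3 genes most alike over the group means. Some genes that met this rule are not reported here. The members and lists were chosen with earlier results of these data known, so no adjustment over the list alone is given. The alternatives were normexp correction with an offset of 50, loess with Aquantile, dim probes left out, the deposited table, the brightest probe per gene, the array as a random block, the batch terms swapped, a replicate block, only same-slide controls, and each pool left out in turn.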

Additional observations from a re-analysis of the deposited data

Results flagged for a closer look

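In groups of 4 to 8 pools, a pool was singled out where its gap to the nearest other pool was large against the range of its group (Dixon's test). Of 32 gene and group combinations tested 4 were singled out, and chance alone singles out about 1 in 20. Cxcl13 was high in replicate 3 of PBS-challenged mice given CuO NH3 at 10 μg (10.97, the nearest other pool 9.87). Ccr7 was low in OVA-challenged control replicate 1 (9.10, the nearest 9.38). Cxcr5 was high in OVA-challenged control replicate 8 (8.90, the nearest 8.54). Cxcr4 was high in replicate 2 of PBS-challenged mice given CuO PEG at 10 μg (7.89, the nearest 7.67).

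The effect of CuO NH3 at 40 μg on Cxcl13 differed between OVA- and PBS-challenged mice by -4.09 (SE 0.57, adjusted p = 0.00014 in limma), a test of the difference itself. No explanation was tested for any of these values.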

How the results depend on the processing

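Of the 30 called member values, 30 were called again with dim probes left out and with the deposited table, 29 with loess, 29 when arrays formed a random block and 29 with the replicate block, 28 with normexp, 26 with the batch terms swapped, 24 with the brightest probe, and 18 of the 21 against controls with only the controls of the same slides. The brightest probe turned the 6 Cxcl12 values of PBS-challenged mice to -0.27 and -0.38 with core CuO at 10 and 40 μg, -0.49 and -0.45 with CuO NH3, -0.55 with CuO COOH at 40 μg and -0.089 with CuO PEG at 40 μg. Counts of calls moved more. The 2 calls of OVA challenge became 1 with normexp, the random array block, the replicate block and with the controls of slides 4 to 6 alone, the lost call being Ccl19. The 19 calls in PBS-challenged mice became 29 with the random block (27 with the replicate block). The 2 calls in OVA-challenged mice became 4 with the brightest probe, 11 with the random block, 7 with the batch terms swapped and 13 with the replicate block. The 1 called difference between challenges became 10, 11 and 11 under the last 3 settings, and the 6 calls between materials 13, 2 and 13. The labels do not say that replicate numbers pair the pools, so the block is a description. The cause of these shifts was not tested. Leaving out each pool in turn gave 1 to 2 calls for OVA challenge, 15 to 21 in PBS-challenged mice, 1 to 4 in OVA-challenged mice, 1 to 3 differences and 3 to 7 between materials. In 1 such fit for OVA-challenged mice and 2 for the differences, a comparison could not be estimated and no value is given. Of 302 member values in these fits 250 were called, 52 lost the call and 0 reversed. Low signal limits the dim members, among them Ccl19 and the dimmer Cxcr4 probe (median raw intensity 140 and 116), and Cxcl13 in the 2 pools where it was not well above background.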
